A study of Mus musculus with 12 samples.

Results

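The activin system was followed in mouse liver through 8 genes. They were the inhibin beta subunit genes Inhba, Inhbb, Inhbc and Inhbe and the receptor genes Acvr1 and Acvr2a. The follistatin gene Fst and the follistatin-like gene Fstl1 were also among them. These genes were chosen by symbol, and all 8 were found among the 14188 genes of the protein-coding expression table, with 15 of its 29883 transcripts. The data came from 12 mice that all received CCl4, a solvent that injures hepatocytes, as 2 injections per week of its mixture with corn oil (10 µl per g of body weight). In addition, the 6 mice of the PZH group received Pien Tze Huang (PZH), a traditional Chinese medicine, by gavage at 0.25 mg/g once a day, and the 6 mice of the Control group received water in its place. The mice were male and 6 weeks old at the start, livers were taken in week 8, and the strain is C57BL/8 in the sample labels and C57BL/6J in the study's methods. Mice without CCl4 were not analysed here, so a value in the Control group is a value in injured liver and not a normal level.

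Activins are dimers of inhibin beta subunits and belong to the TGF-beta superfamily. They bind a type II receptor such as ACVR2A, which then activates a type I receptor that phosphorylates SMAD2 and SMAD3, while follistatin is secreted, binds activin A and activin B tightly and keeps them from their receptors. The liver is the main site of Inhbc and Inhbe expression, and activin A, the dimer encoded by Inhba, is known to restrain hepatocyte growth and to act on hepatic stellate cells.

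Follistatin and the activin B subunit were the members that differed most between the groups. Fst was 0.311 times and Inhbb 0.317 times its Control mean in the PZH group, and for each of these genes every PZH mouse was below every Control mouse. The hepatic subunit genes Inhbc and Inhbe and the receptor gene Acvr2a were also lower by smaller amounts, and the differences of the latter 3 did not pass the threshold after another scaling of the libraries. Inhba, Fstl1 and Acvr1 did not pass the threshold.

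Values are given as gene FPKM (fragments per kilobase of transcript, scaled to the mapped fragments of the library), summed over the transcripts of a gene. The groups were compared with limma on log2(FPKM + 1), with Benjamini-Hochberg adjustment over all 14188 genes, and a gene was called changed at an adjusted P below 0.05. By this rule 5 of the 8 members were lower in the PZH group and 0 were higher (also 0 at an unadjusted P below 0.05), where 32.1% of all genes were called lower and 12.7% higher. The study called transcripts by a 2-fold change with unadjusted P below 0.05. With this rule applied to gene sums, 1 member (Fst) was lower, where 2.5% of all genes were. With the most abundant transcript of each gene in place of the sum, 0 members met it. The groups did not overlap for 2 members, with the PZH group lower in both, where 17.9% of all genes were lower without overlap. Since many genes differed between these livers, the count of 5 members is to be read against that background. A fold change with a pseudocount of 1 FPKM understates the change of genes of low level, so means are given on the linear FPKM scale as well.

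The scaling of the libraries had to be taken into account before single genes were compared. The median log2 fold change over all genes was -0.11, and 65.2% of genes had a negative value. The median-ratio scale factor of a library, which centres the median gene, was between 0.84 and 1.002 in the PZH group versus between 1.024 and 1.104 in Controls, without overlap. After division by this factor 2793 genes were lower and 2737 higher, against 4560 lower and 1798 higher with the FPKM as deposited. With this scaling 2 members were lower (Fst and Inhbb), where 19.7% of all genes were lower and 19.3% higher. The hepatocyte marker genes (9 of 10 listed genes found, 5 higher and 1 lower, or 6 and 0 with this scaling) summed to between 42300 and 58600 FPKM in the PZH group versus between 24300 and 38000 FPKM in Controls, most of it Alb, the gene for serum albumin. The part of this difference in the results for the members was not tested. In whole liver RNA fewer cells of a type and less RNA per cell cannot be told apart.

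**Figure D1:**
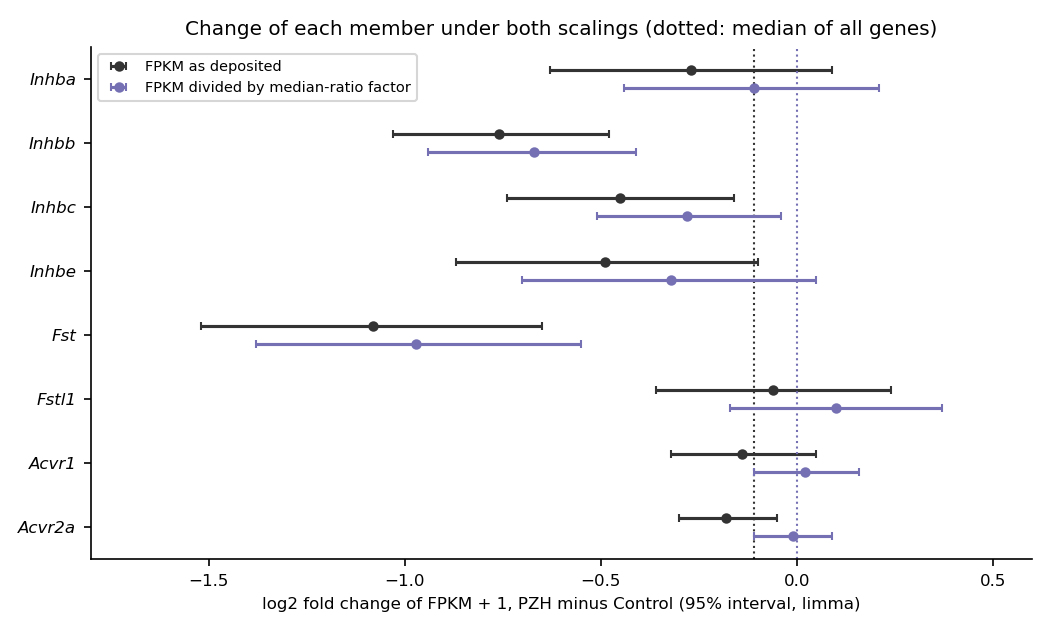
Log2 fold change (PZH minus Control, FPKM + 1) of each of the 8 members with its 95% interval from limma, for FPKM as deposited (black) and after division by the median-ratio factor (purple). Dotted lines mark the median of all genes, -0.11 and 0.0, and with both scalings the intervals of Fst, Inhbb and Inhbc lie wholly below that median.

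Among the ligand genes, Inhbc had the highest level. Inhbc encodes the beta C subunit, a hepatocyte product, and it lies on chromosome 10 (GRCm38 chr10:127356322-127370431, minus strand). Its FPKM ran from 18.5 over a median of 24.6 to 29.6 in the PZH group versus from 27.1 over 35.0 to 44.7 in Controls. All PZH mice were below the Control median and 4 of 6 were below the lowest Control mouse, so the ranges overlapped only slightly. The mean was 24.9 ± 4.05 (SD, n = 6) against 34.5 ± 6.49, and the change on the log2 scale was -0.45 (SE 0.13, adjusted P = 0.0146). After median-ratio scaling the log2 fold change was -0.28 with adjusted P = 0.0638, so the call depended on the scaling. The single listed transcript, Inhbc-201, has 2 exons.

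Inhbe, the gene for the beta E subunit, lies next to Inhbc on the same strand of chromosome 10 (chr10:127348857-127354411), with 1910 bases between both genes. The Inhbe FPKM ran from 5.0 over a median of 6.93 to 9.61 in the PZH group versus from 6.81 over 10.3 to 13.5 in Controls. Each PZH mouse was below the Control median, but 4 of them lay within the Control range. The mean was 7.16 ± 1.92 (SD, n = 6) against 10.4 ± 2.52, and the change on the log2 scale was -0.49 (SE 0.18, adjusted P = 0.039). This call was weak. It was lost after median-ratio scaling (-0.32, adjusted P = 0.161), and with 1 mouse left out the adjusted P ran from 0.0127 to 0.0847 and passed in 4 of 12 cases. The 8 losses came on leaving out PZH 1, PZH 3, PZH 4, PZH 6, Control 1, Control 2, Control 5 or Control 6.

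Inhbe is also known as a gene that responds to stress signalling through the factor ATF4, so its start was compared with those of a list of Atf4 and its targets. The motif TGATGCAA, a composite site for C/EBP and ATF factors, was searched on both strands from 250 bases before to 50 bases after each RefSeq start (GRCm38.p6), and was found in 0.895% of 32851 such windows. Of the 7 members with an entry it was present in the window of Inhbe alone, at position -181 from the start (chr10:127352022-127352029, minus strand). It was also present at 4 of the 10 genes of the Atf4 list. The 30 bases around each match are shown to let the flanks be compared, 5′ to 3′ on the strand of the gene, with the match in capitals, which is the reverse complement TTGCATCA in each case.
Inhbe: catcctctttcTTGCATCAtgcatgtccac
Atf3: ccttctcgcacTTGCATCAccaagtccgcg
Chac1: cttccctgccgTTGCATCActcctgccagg
Fgf21: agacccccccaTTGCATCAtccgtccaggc
Vldlr: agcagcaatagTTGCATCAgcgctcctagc
Of the 4 other genes with the motif, Atf3, Chac1 and Fgf21 were lower in the PZH group, whereas Vldlr did not pass the test (log2 fold change 0.13, adjusted P = 0.357). The annotations differ at Inhbe. The GENCODE M21 transcript starts 2563 bases upstream of the RefSeq start and has 5319 exonic bases, more than the 2447 bases that the RefSeq gene spans in the genome, and the motif lies within its first exon. The FPKM level of Inhbe relative to other genes therefore depends on the gene model, and the groups were not compared on the RefSeq model.

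Neither the composite motif nor the letters of an E-box (CACGTG), a cAMP response element (TGACGTCA) or an AP-1 site (TGANTCA) were found in the window of Inhbc, which has 48.8% G and C bases. The window is shown because Inhbc had the highest level of the members and is the neighbour of Inhbe (250 bases before the RefSeq start, chr10:127370549-127370798, GRCm38.p6, minus strand, 5′ to 3′).
Inhbc: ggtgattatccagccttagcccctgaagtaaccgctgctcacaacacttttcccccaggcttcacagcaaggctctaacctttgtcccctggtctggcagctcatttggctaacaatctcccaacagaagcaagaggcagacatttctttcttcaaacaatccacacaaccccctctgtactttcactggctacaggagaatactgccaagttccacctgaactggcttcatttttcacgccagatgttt

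Inhbb encodes the beta B subunit, from which activin B is made, and it lies on chromosome 1 (chr1:119415465-119422248, minus strand). Its level was low, above that of 23.3% of all genes. Inhbb ran from an FPKM of 0.289 over a median of 0.527 to 0.688 in the PZH group versus from 0.78 over 1.74 to 2.06 in Controls. The groups did not overlap, and the nearest Control mouse was Control 2. The mean was 0.496 ± 0.146 (SD, n = 6) against 1.56 ± 0.489, and the log2 fold change was -0.76 (SE 0.13, adjusted P = 0.000434). After median-ratio scaling the log2 fold change was -0.67 (adjusted P = 0.000956), and with each mouse left out in turn it stayed between -0.86 and -0.7 and past the threshold. The estimated depth and the length would put about 34 to 285 fragments per mouse behind these values. This is a rough figure, since counts were not recovered.

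The start of Inhbb differs in composition from that of Inhbc, with 68.0% G and C bases and 1 GC box (GGGCGG, searched on both strands, present in 35.7% of all windows) at position -122. The sequence is shown because Inhbb was 1 of the 2 members that were lower with both scalings, and Fst has no entry (250 bases before the RefSeq start, chr1:119422249-119422498, GRCm38.p6, minus strand, 5′ to 3′, with the GC box in capitals).
Inhbb: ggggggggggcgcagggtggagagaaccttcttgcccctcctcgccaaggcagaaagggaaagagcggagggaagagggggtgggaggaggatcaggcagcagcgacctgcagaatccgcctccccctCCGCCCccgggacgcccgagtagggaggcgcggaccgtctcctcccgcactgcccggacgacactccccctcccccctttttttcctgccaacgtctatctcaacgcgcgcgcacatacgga
GC boxes were also found in the windows of Acvr1, Acvr2a and Fstl1. A TATA box (TATAAA, in 13.6% of windows) was found only at Inhba among the members, at position -91.

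Inhba, the gene for the beta A subunit of activin A, lies on chromosome 13 (chr13:16011851-16031621, plus strand). The FPKM of Inhba ran from 4.02 over a median of 5.22 to 10.4 in the PZH group versus from 5.91 over 6.63 to 8.47 in Controls. Of the PZH mice 5 were below every Control mouse, and PZH 2 was above every Control mouse. The mean was 5.78 ± 2.35 (SD, n = 6) against 6.91 ± 0.929, and the log2 fold change of -0.27 (SE 0.17, 95% interval -0.63 to 0.09) did not pass the threshold (adjusted P = 0.211). This outcome rested on a single library, since without PZH 2 the log2 fold change was -0.43 and passed (adjusted P = 0.0032). PZH 2 was the PZH mouse with the highest FPKM for 5 members (Inhba, Inhbb, Fstl1, Acvr1 and Acvr2a).

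The subunit genes were also set beside each other in each mouse. Of the summed FPKM of the 4 beta subunit genes, Inhbc made up 65.3% ± 3.98 (SD, n = 6) in the PZH group versus 64.4% ± 5.14 in Controls. Inhbe made up 18.6% ± 2.5 against 19.6% ± 4.73, and Inhba 14.8% ± 3.35 against 13.1% ± 2.12. Inhbb was the minor component, with 1.3% ± 0.3 against 2.95% ± 0.937. All of these shares depend on the gene model used for Inhbe.

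**Figure D2:**
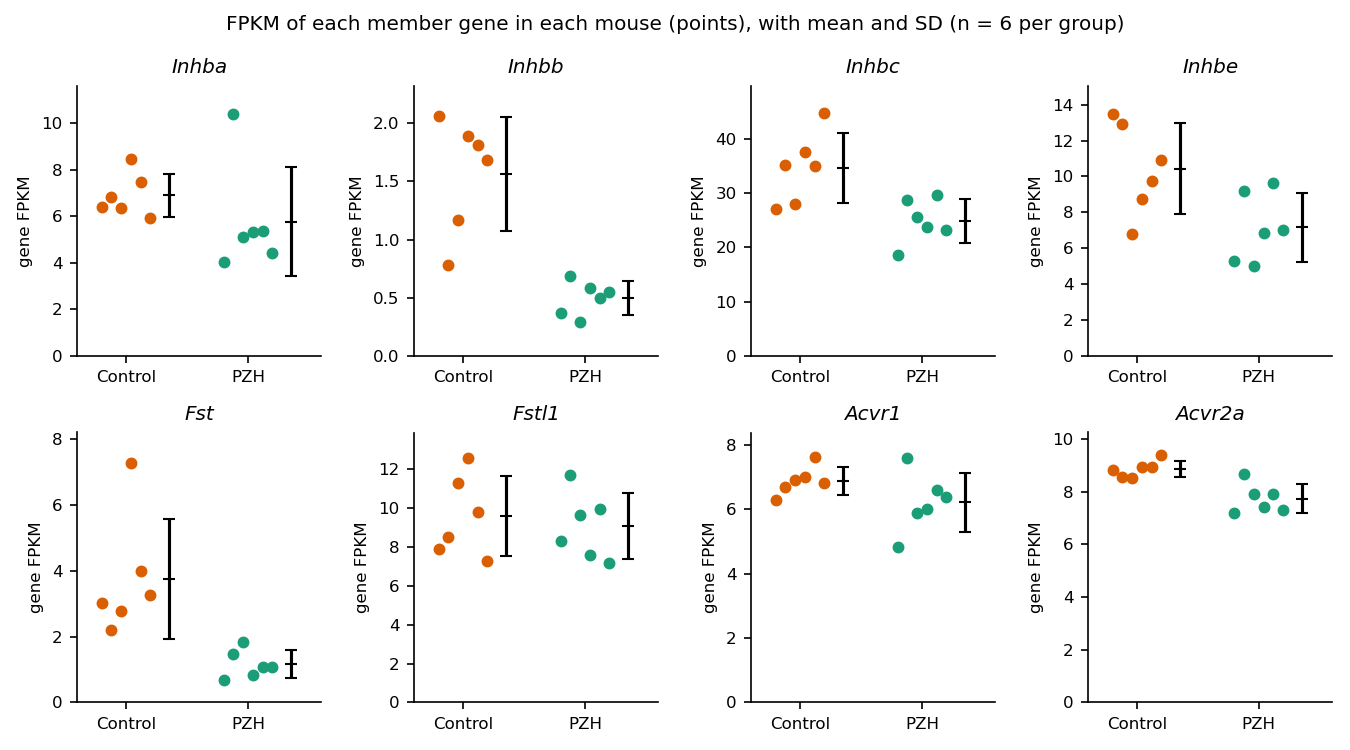
Gene FPKM (linear axis from 0) of the 8 members in the 6 Control mice (orange) and the 6 PZH mice (green), one point per mouse, with the mean and SD of the group at the right of its points. Fst and Inhbb separate the groups, Inhba has PZH 2 at 10.4 above all other mice, and the points of Fstl1 and Acvr1 overlap.

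Of the 8 members, Fst showed the largest log2 fold change with 1 FPKM added. On the linear scale its ratio of means (0.311) was close to that of Inhbb (0.317). The order of both genes was reversed for the ratio of the medians, which were 0.527 FPKM in the PZH group against 1.74 in Controls for Inhbb. Fst, which encodes follistatin, lies on chromosome 13 (chr13:114452290-114458951, minus strand). Follistatin transcripts ran from an FPKM of 0.685 over a median of 1.09 to 1.84 in the PZH group versus from 2.2 over 3.15 to 7.27 in Controls. The groups did not overlap, and Control 4 stood above all other mice. The mean was 1.17 ± 0.427 (SD, n = 6) against 3.76 ± 1.82, and the log2 fold change was -1.08 (SE 0.2, 95% interval -1.52 to -0.65, adjusted P = 0.000897). After median-ratio scaling it was -0.97 (adjusted P = 0.00161), which no longer met the 2-fold criterion but passed the adjusted threshold. Without Control 4 the 2-fold criterion, which is taken on FPKM + 1, was not met either (log2 fold change -0.91). The adjusted P stayed between 0.000535 and 0.00282 with each mouse left out in turn.

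Fst was listed with 4 transcripts. The main transcript Fst-202 (6 exons, 2833 bases) had 0.672 ± 0.263 FPKM (SD, n = 6) in the PZH group versus 2.46 ± 1.25 in Controls, and was lower in the PZH group (log2 fold change -1.0, adjusted P = 0.00438, limma over all 29883 transcripts, of which 14.0% were lower). Fst-201 was lower as well (log2 fold change -0.32, adjusted P = 0.019), and both transcripts separated the groups. Fst-204 and Fst-205 did not pass, with log2 fold changes of -0.15 and -0.36, and Fst-205 was listed at 0 in 3 mice. The share of Fst-202 in the gene was 58.6% ± 16.9 against 65.0% ± 8.59 and did not differ beyond relabelling of the mice (two-sided exact permutation test, p = 0.413, adjusted p = 0.437 over 3 shares).

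Fstl1 encodes follistatin-like 1, a secreted glycoprotein of mesenchymal cells with a follistatin domain, and it lies on chromosome 16 (chr16:37776873-37836514, plus strand). Its FPKM ran from 7.16 over a median of 8.99 to 11.7 in the PZH group versus from 7.3 over 9.17 to 12.6 in Controls. The ranges covered each other almost fully. The mean was 9.08 ± 1.71 (SD, n = 6) against 9.57 ± 2.05, the log2 fold change was -0.06 (SE 0.14, 95% interval -0.36 to 0.24, adjusted P = 0.739), and its sign turned to 0.1 after median-ratio scaling. Whether the group difference of Fst was unlike that of Fstl1 was tested on the ratio of both genes within a mouse. This test uses the same values as the comparisons of the single genes, so it is no independent support for them. The log2 ratio of Fst to Fstl1 (with 0.1 FPKM added to each) was between -3.42 and -2.33 in the PZH group versus between -1.98 and -0.78 in Controls. The groups did not overlap, and the difference of -1.49 had the smallest p the design allows (two-sided exact permutation test over 924 labellings, p = 0.0022, adjusted p = 0.00722 over 5 ratios).

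The ratios of Inhba to Fst and of Inhba to Inhbb were compared in the same manner and with the same limit. Such a ratio does not depend on the scaling of a library beyond the 0.1 FPKM added. Inhba exceeded Fst in every mouse, with a geometric mean ratio of 4.61 in the PZH group versus 1.95 in Controls. The log2 ratio was between 1.43 and 2.74 in the PZH group versus between 0.22 and 1.59 in Controls. The groups overlapped by 1 PZH mouse (PZH 3) and 1 Control mouse (Control 2), and the difference of 1.25 passed (exact permutation test, p = 0.00433, adjusted p = 0.00722). The ratio of Inhba to Inhbb was also higher in the PZH group, with geometric means of 9.63 and 4.38 and a difference of 1.14 on the log2 scale (exact permutation test, p = 0.00433, adjusted p = 0.00722). With 1 FPKM added to each gene in place of 0.1, the differences shrank to 0.81 for Inhba to Fst (adjusted p = 0.0108) and 0.49 for Inhba to Inhbb (adjusted p = 0.0433, exact permutation tests) and still passed. Inhba itself did not pass (adjusted P = 0.211 in limma). The ratio of Inhbb to Fst was not tested, and these genes were 0.317 and 0.311 times their Control means in the PZH group. Ratios of Inhbc and Inhbe to Fst were not tested either, so the result for Inhba and Fst is not extended to other subunits. Both tested ratios are of transcripts, and the proteins were not measured here.

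The ratio of Inhbe to Inhbc did not pass. It was -1.81 ± 0.27 (SD, n = 6) on the log2 scale in the PZH group versus -1.74 ± 0.43 in Controls, a difference of -0.07 (exact permutation test, p = 0.755). The sign of this small difference turned when PZH 3 or Control 1 was left out, to 0.03 and 0.07.

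**Figure D3:**
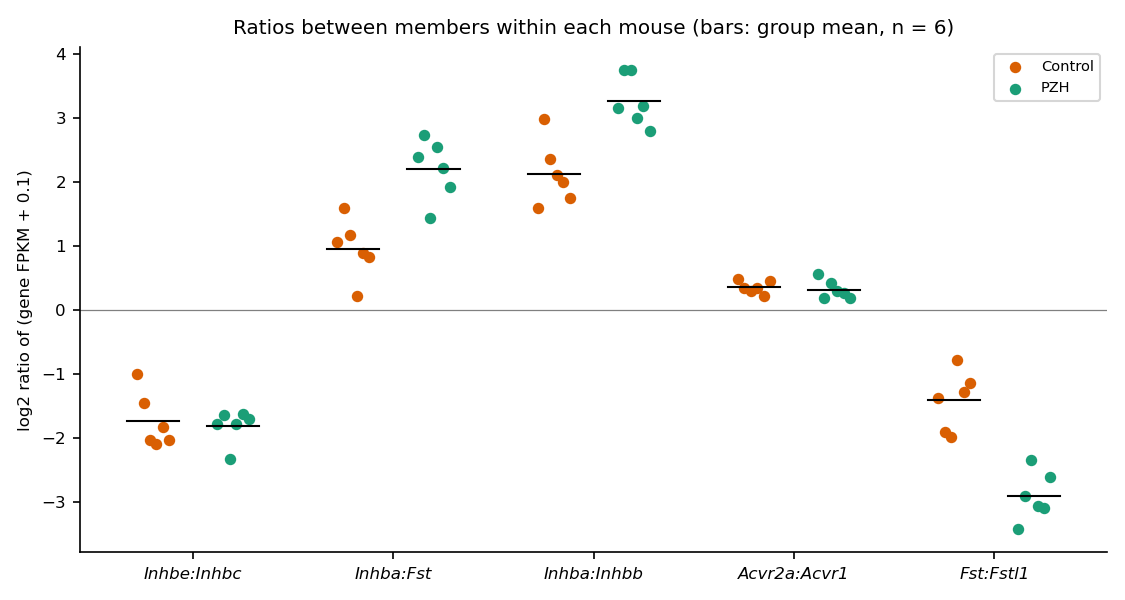
Log2 ratio of the FPKM of 2 members within each mouse (0.1 FPKM added to each), Control in orange and PZH in green, with the group mean as a bar. The ratio of Fst to Fstl1 separates the groups, the ratios of Inhba to Fst and of Inhba to Inhbb are higher in the PZH group with slight overlap, and the other 2 ratios overlap.

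Of the receptor genes, Acvr2a encodes a type II receptor of activins and lies on chromosome 2 (chr2:48814109-48903269, plus strand). Acvr2a had an FPKM from 7.19 over a median of 7.65 to 8.67 in the PZH group versus from 8.53 over 8.86 to 9.37 in Controls. PZH 2 was the sole PZH mouse inside the Control range. The mean was 7.73 ± 0.55 (SD, n = 6) against 8.85 ± 0.311, and the difference was small but larger than the spread (log2 fold change -0.18, SE 0.06, adjusted P = 0.0223). It was close to the shift of the median gene, and after median-ratio scaling it was -0.01 (95% interval -0.11 to 0.09, adjusted P = 0.871). Without PZH 6 the adjusted P was 0.0503.

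Acvr1 encodes ALK2, a type I receptor that mainly serves BMP ligands and also binds activin A, and it lies on the same chromosome (chr2:58446441-58567157, minus strand). Its FPKM ran from 4.83 over a median of 6.19 to 7.6 in the PZH group versus from 6.28 over 6.85 to 7.62 in Controls. Of the PZH mice 3 were below the lowest Control mouse and the others overlapped. The mean was 6.21 ± 0.913 (SD, n = 6) against 6.88 ± 0.441, the log2 fold change of -0.14 (SE 0.08, adjusted P = 0.214) did not pass, and its sign turned to 0.02 after median-ratio scaling. The ratio of Acvr2a to Acvr1 did not pass either (difference -0.04 on the log2 scale, exact permutation test, p = 0.576).

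The split of Acvr1 into its transcripts was also compared. The gene was listed with 4 transcripts, of which Acvr1-204 (12 exons, 3050 bases) was 2.12 ± 0.221 FPKM (SD, n = 6) in the PZH group versus 2.99 ± 0.444 in Controls. The groups did not overlap for Acvr1-204, and its log2 fold change was -0.35 (adjusted P = 0.0106), which was -0.22 and did not pass after median-ratio scaling. Acvr1-202 (13 exons, 3293 bases) had a log2 fold change of 0.2 and did not pass (adjusted P = 0.432). The share of Acvr1-202 in the gene was 48.2% ± 3.47 in the PZH group versus 36.6% ± 10.1 in Controls, a difference of 11.6 percentage points (two-sided exact permutation test, p = 0.013, adjusted p = 0.039 over 3 shares). The lowest shares were those of Control 3 (22.7%) and Control 1 (25.3%), and Control 4 (47.5%) lay among the PZH mice. The call was lost in 6 of 12 cases with 1 mouse left out. Without Control 1 or Control 3 the difference was 9.29 and 8.76 percentage points (adjusted p = 0.0584 for both, exact permutation tests). Without PZH 2, PZH 3 or PZH 5 it was between 10.9 and 11.1 percentage points (adjusted p = 0.117 for each), and without PZH 4 it was 11.5 (adjusted p = 0.0909). Transcripts of a gene share most of their exons, so their split is an estimate of the assembler.

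**Figure D4:**
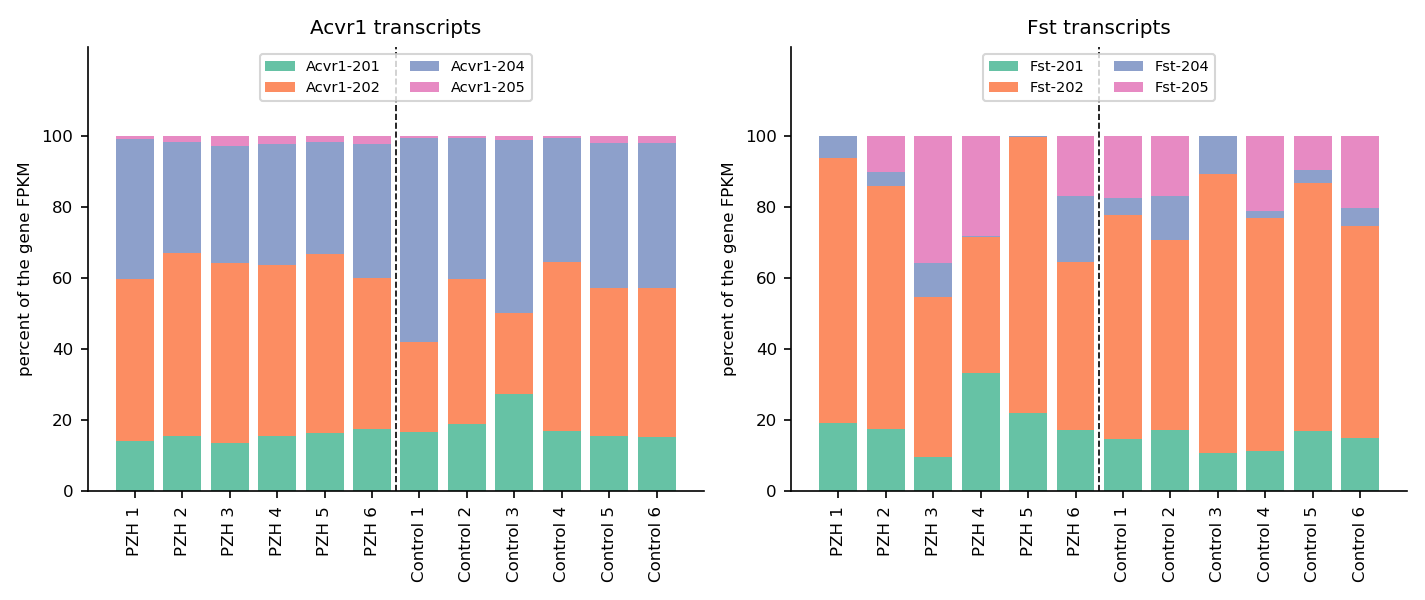
Percent of the gene FPKM in each listed transcript of Acvr1 (left) and Fst (right), one bar per mouse, PZH mice left of the dashed line. Acvr1-202 takes 42.6% to 51.4% in PZH mice against 22.7% to 47.5% in Controls, and the Fst split varies between mice of one group.

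The order of the levels is given as a description, and the place of Inhbe in it depends on the gene model. Over all mice the mean FPKM, which is per length of transcript, was highest for Inhbc (29.7) and then for Fstl1 (9.32), Inhbe (8.79), Acvr2a (8.29), Acvr1 (6.55), Inhba (6.35), Fst (2.46) and Inhbb (1.03). In the Control group Inhbe came second (10.4) before Fstl1 (9.57) and Acvr2a (8.85), and Inhba (6.91) came before Acvr1 (6.88). In the PZH group Inhbe (7.16) came after Fstl1 (9.08) and Acvr2a (7.73), and Inhba (5.78) after Acvr1 (6.21). Inhbc was above every other member in all 12 mice without overlap of the ranges. All other neighbours in this order overlapped in range over the 12 mice, although Acvr2a was above Acvr1, Inhba above Fst and Fst above Inhbb within each mouse. Inhbc exceeded 90.2% of all genes in mean level and Inhbb 23.3%.

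The genes most like each member across mice were taken by the mean of the Pearson correlations of log2(FPKM + 1) taken separately in the 6 mice of each group, over 10939 other genes with a mean FPKM of at least 1. These are descriptions over 6 mice per group that share depth and scaling. The best of so many genes can reach a high correlation by selection alone, and no function is inferred from it. Likeness within the groups also says nothing of the change between them. For Fst they were Slc39a14 (0.96), a zinc and manganese transporter, Swap70 (0.96) and Pik3r5 (0.95). For Inhbc they were Prdm4 (0.97), Sox4 (0.97) and Zdhhc16 (0.95), and for Inhbe Ppp1r10 (0.91), Uhrf1bp1l (0.9) and Ppp4r3a (0.89). Fstl1 was closest to Col5a2 (0.95), a fibrillar collagen gene, AW011738 (0.94) and Fkbp10 (0.94), which acts in collagen folding. Inhba was closest to Nfatc2ip (0.95), Msrb3 (0.95) and Fam120c (0.94), and Inhbb to Btbd6 (0.88), Cdc42se1 (0.86) and Slc20a1 (0.85). For the receptors they were Sik3 (0.93), Lrrk1 (0.92) and Cpxm1 (0.91) with Acvr1, and Ywhag (0.99), Nrf1 (0.96) and Frmd6 (0.96) with Acvr2a.

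The other genes of activin signalling were described from a list of 21 genes, of which 17 were found. Of these 10 were lower, 0 were higher and 7 did not pass, where 32.1% of all genes were lower, and the median log2 fold change was -0.35 against -0.11 over all genes. After median-ratio scaling 5 were lower and 1 was higher, where 19.7% and 19.3% of all genes were. The largest differences were in negative regulators of SMAD signalling, namely Skil (4.38 ± 1.1 against 8.35 ± 1.42 FPKM, log2 fold change -0.81, adjusted P = 0.000401), Smad7 (-0.76, adjusted P = 0.000227) and Ski (-0.75, adjusted P = 0.0325). Skil and Smad7 are known as transcriptional targets of activin and TGF-beta, and neither overlapped between the groups. Smad3, which carries the activin signal to the nucleus, was lower with 6.59 ± 1.14 against 10.9 ± 1.83 FPKM (log2 fold change -0.66, adjusted P = 0.000934). Ski did not pass after median-ratio scaling (-0.6, adjusted P = 0.0695), while the other 3 did. The type I receptor gene Acvr1b and the alpha subunit gene Inha did not pass with the FPKM as deposited (log2 fold changes of 0.05 and 0.03). After median-ratio scaling Acvr1b was the gene called higher (0.2, adjusted P = 0.0455), so its call depended on the scaling. Inha was barely detected, with at most 0.173 FPKM in any mouse. Fstl3, a relative of follistatin that also binds activins, was lower (0.217 ± 0.0913 against 0.565 ± 0.21 FPKM, log2 fold change -0.35, adjusted P = 0.00868).

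ACVR1 and ACVR2A also serve the BMP arm, which in hepatocytes controls the iron hormone hepcidin. Of 23 listed symbols of this arm 21 were in the table, while Bmpr1b was not and Hjv is another symbol of the listed Hfe2. Of these 9 were lower, 3 were higher and 9 did not pass, with a median log2 fold change of -0.23, where 32.1% of all genes were lower and 12.7% higher. After median-ratio scaling 6 were lower and 5 higher, where 19.7% and 19.3% of all genes were. The BMP target genes Id1 and Id3, which encode inhibitors of DNA binding, were lower without overlap. From the same list, Id2 (log2 fold change -0.39, adjusted P = 0.259 in limma) and Smad6 (-0.22, adjusted P = 0.0503) did not pass. Id1 was 11.2 ± 3.54 FPKM (SD, n = 6) against 42.3 ± 8.95 in Controls (log2 fold change -1.84, adjusted P = 2.69e-05), and Id3 had a log2 fold change of -1.11 (adjusted P = 3.98e-05). Hamp, the hepcidin gene, was 1270 ± 523 against 2690 ± 544 FPKM (log2 fold change -1.16, adjusted P = 0.00193). Hfe2, the gene for the BMP co-receptor hemojuvelin, was higher with 25.9 ± 4.02 against 11.9 ± 6.0 FPKM (log2 fold change 1.17, adjusted P = 0.00231). Reads of Hamp and of its near copy Hamp2, which did not pass (log2 fold change 1.05, adjusted P = 0.098), may be split uncertainly between both genes.

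The list of Atf4 and its targets had the lowest median of the lists compared. Of its 10 genes 9 were lower and 1 did not pass with either scaling (32.1% and 19.7% of all genes were lower), with a median log2 fold change of -1.33. Trib3, a pseudokinase gene (log2 fold change -2.06, adjusted P = 9.42e-06), Atf3, a stress-induced transcription factor gene (-2.01, adjusted P = 2.01e-05), and Ddit3, which encodes CHOP (-1.98, adjusted P = 1.28e-05), did not overlap between the groups. Fgf21, a liver hormone gene, had a log2 fold change of -1.66 (adjusted P = 0.00225). Inhbe, whose log2 fold change was -0.49, lay between this list and the median of all genes.

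**Figure D5:**
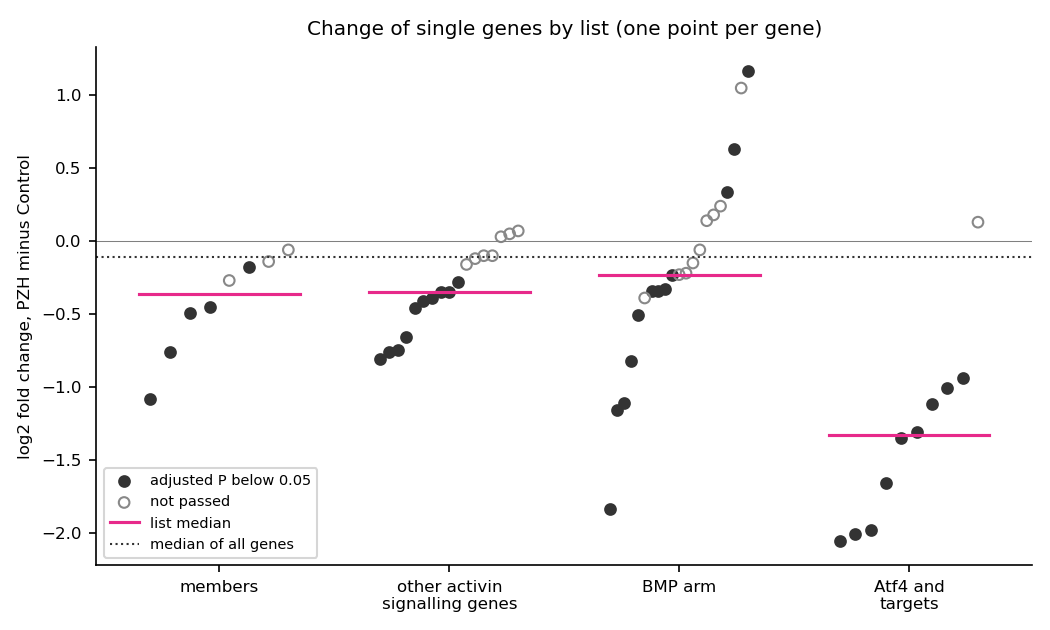
Log2 fold change (PZH minus Control) of single genes for the 8 members, 17 other genes of activin signalling, 21 genes of the BMP arm and 10 genes of the Atf4 list, filled where the adjusted P was below 0.05. Pink bars are the list medians and the dotted line is the median of all genes (-0.11), with the Atf4 list lowest at -1.33.

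Marker genes of the other liver cell types were placed beside these results. Their counts are to be read against all genes, of which 12.7% were higher and 32.1% lower, or 19.3% and 19.7% after median-ratio scaling. Of 10 listed stellate cell and myofibroblast genes 3 were higher and 2 lower, and their summed FPKM was between 342 and 442 in the PZH group versus between 247 and 385 in Controls. Of 8 Kupffer cell and macrophage genes 3 were higher and 2 lower (292 to 457 against 251 to 371 FPKM), and of 8 endothelial genes 0 were higher and 2 lower (116 to 147 against 124 to 143 FPKM). Of 5 cholangiocyte genes found, 1 was lower (Sox9, log2 fold change -1.64), with sums of 66.9 to 133 against 96.9 to 161 FPKM, and Epcam was listed at 0 in 1 mouse. Of 9 lymphocyte and neutrophil genes 0 passed in limma at the adjusted threshold and 0 at an unadjusted P below 0.05 (14.8 to 130 against 18.9 to 64.6 FPKM), and Ly6g was listed at 0 in 2 mice. After median-ratio scaling the counts higher and lower were 4 and 2 for stellate cell genes, 4 and 0 for Kupffer cell and macrophage genes, 2 and 1 for endothelial genes, 1 and 1 for cholangiocyte genes, and 1 and 0 for lymphocyte and neutrophil genes. The summed ranges of these 5 lists overlapped between the groups, and only that of the hepatocyte genes did not. Single abundant genes weigh most in some sums, so a sum is not a measure of a cell type. Such genes were Spp1 in the cholangiocyte list (means of 94.1 FPKM in the PZH group versus 121 in Controls), Lyz2 in the macrophage list (235 against 190) and Dcn in the stellate cell list (184 against 170). The labelled tissue was checked with Alb, which was abundant in every mouse, with means of 38400 FPKM in the PZH group versus 24100 FPKM in Controls. The part of these cell types in the results for the members was not tested.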

How the data were processed

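Total RNA of liver from 6 PZH and 6 Control mice was depleted of ribosomal RNA and sequenced as strand-specific libraries. Reads were trimmed by the authors with Trimmomatic. Mapping to GRCm38 was done with HISAT2 (2.1.0) and assembly with StringTie (1.3.5) on the Ensembl annotation (release 95). The authors deposited FPKM per transcript and mouse, in which length and library size are accounted for. Each listed transcript had an FPKM sum of at least 1 over the 12 mice. Groups were taken from the sample titles, and the labels do not name batches.

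Gene FPKM was the sum over protein-coding transcripts of a gene in GENCODE M21, which held 29876 transcripts (7 were not matched). No filter was applied. Groups were compared with limma 3.58.1 in R 4.3.3 on log2(FPKM + 1) over all genes or transcripts, with Benjamini-Hochberg adjustment. Ratios and transcript shares were compared by two-sided exact permutation tests over 924 labellings. Python (3.11.15) was used elsewhere, with numpy (2.4.6), pandas (2.3.3), matplotlib (3.10.9) and scipy (1.17.1). On simulated data for this comparison, 94% of 200 genes of 14188 changed by 1 on the log2 scale were recovered, with 12 false calls. The changed genes were drawn from those with a mean log2(FPKM + 1) above 1 in Controls. The noise was normal and independent between genes. No difference in scaling between the groups was simulated, so the false calls do not cover errors from scaling.

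The smallest steps of the FPKM values put the depth between 27.0 and 42.9 M fragments per mouse. Of the low values 17.2% to 23.3% lay on these steps (within 2%), so counts were not recovered, no counting interval is given, and the precision of a value is the spread between mice.

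The members and gene lists were chosen with earlier results of these data known. Named were all members and their transcripts, up to 4 genes of each pathway list with the largest change among those past the adjusted threshold, and the 3 genes most like each member. Fstl3, Acvr1b, Inha, Hamp2, Id2, Smad6, Vldlr and the marker genes were named in addition after their values were seen. As alternatives, the pseudocount was set to 0.1 (to 1 for ratios), genes with a mean FPKM under 1 were left out, libraries were rescaled by median ratio or to equal sums, moderation was dropped or given a mean-variance trend, genes were represented by their most abundant transcript, same-numbered mice were blocked, and single mice were left out. Sequences are from RefSeq (GRCm38.p6), where 7 of 8 members had a promoter entry. The lncRNA table was not used, since no member is in it.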

Additional observations from a re-analysis of the deposited data

Results flagged for a closer look

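In 32 groups of 6 mice (the gene FPKM, ratios and transcript shares of the members in each group), the gap of the highest or lowest mouse to its neighbour was set against the range of the group, and 3 mice stood apart, where chance flags about 1 in 20 groups. Inhba was 10.4 FPKM in PZH 2, with the other PZH mice between 4.02 and 5.38. Fst was 7.27 FPKM in Control 4, with the other Control mice between 2.2 and 4.01. The log2 ratio of Inhbe to Inhbc was -2.33 in PZH 3, with the other PZH mice between -1.78 and -1.61.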

How the results depend on the processing

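Fst and Inhbb stayed lower and past the adjusted threshold under every alternative run, and Inhbc in all but median-ratio scaling. With that scaling 2 members were lower in place of 5, none met the 2-fold criterion (0 in place of 1), and Fstl1 (0.1, transcript and gene) and Acvr1 (0.02) turned sign. With a pseudocount of 0.1 the 2-fold criterion was met by 2 members, and with the most abundant transcript alone by 0, where Acvr1 was 0.2. With a pseudocount of 1 the log2 ratio difference of Fst to Fstl1 was -1.02 (adjusted p = 0.0108). Inhbe was also lost without variance moderation (adjusted P = 0.0672) and with the most abundant transcript alone (0.0529). When single mice were left out, the number of lower members was between 3 (without PZH 6) and 6 (without PZH 2), the number at 2-fold between 0 and 1, the difference of the Acvr1-202 share between 8.76 and 13.7 percentage points (lost in 6 of 12 cases), that of the Inhbe to Inhbc ratio between -0.14 and 0.07, and the log2 fold change of Fstl1 between -0.13 and 0.01. Fold changes of the transcripts Inhbc-201 and Acvr2a-201 lost their calls with a pseudocount of 0.1 and with median-ratio scaling, and the cause of these losses was not tested.

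Mice of both groups share numbers, but the correlations of same-numbered mice were between -0.02 and 0.03, 0 of 6 pairs were over 0.1, and 1 of 6 PZH mice was closest to its own number, so the numbers do not pair the mice. With the mouse number as a replicate block 5982 genes were called in place of 6358, and 4 members were lower, without Acvr2a (adjusted P = 0.0709). A sign-flip test of same-numbered mice, whose smallest p is 0.0312, gave an adjusted p of 0.0521 for the log2 ratio differences of 1.25 (Inhba to Fst), 1.14 (Inhba to Inhbb) and -1.49 (Fst to Fstl1), and of 0.0938 for the 11.6 points of the Acvr1-202 share. Each of these differences had the same sign in all 6 pairs, so its unadjusted p was the smallest that this test allows. The loss of these calls therefore reflects the limit of the test with 6 pairs and does not show a weaker difference.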
